A study of Homo sapiens with 22 samples.

Results

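The mRNAs of 7 myeloid granule proteins, MPO, ELANE, PRTN3, AZU1, CTSG, LYZ and BPI, were measured by RNA-seq in Kasumi-1 cells carrying shRNAs against FIP1L1. The genes were taken by symbol, and each matched 1 of the 48162 Ensembl IDs of the RNA-seq count table. Kasumi-1, a human cell line, was derived from an acute myeloid leukaemia with the RUNX1-RUNX1T1 fusion. The FIP1L1 protein belongs to the complex that recognises poly(A) signals and helps to form mRNA 3′ ends. The 12 RNA-seq libraries comprised 4 with shRNA 1 against FIP1L1, 4 with shRNA 2 against FIP1L1 and 4 with a control shRNA, each delivered by lentivirus and followed by puromycin selection of cells in RPMI with serum. All groups thus carried a lentiviral shRNA and the resistance marker. The replicates are described as biological, without a statement of whether each came from its own transduction, so a p-value here speaks for the spread among these libraries only.

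Neutrophil precursors make most of these proteins at the promyelocyte stage and store them in azurophil, or primary, granules, which fuse with vacuoles that hold engulfed microbes. Myeloperoxidase turns hydrogen peroxide and chloride into hypochlorous acid. Neutrophil elastase, proteinase 3 and cathepsin G are serine proteases that are activated by removal of a short propeptide before storage, and azurocidin is a relative that has lost catalytic activity but binds bacteria and attracts monocytes. Lysozyme cuts the bacterial cell wall, and BPI binds the lipopolysaccharide of Gram-negative bacteria. RUNX1, C/EBP factors, PU.1 and MYB are known regulators of several of these genes. Leukaemias with the RUNX1-RUNX1T1 fusion are known for blasts that hold azurophil material and myeloperoxidase.

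The RefSeq promoter table held CTSG, AZU1 and PRTN3, and ELANE, MPO, LYZ and BPI were not matched in it. The 250 bases before the RefSeq start are shown for these 3 genes because they were the only members matched. AZU1 and PRTN3 lie side by side in 1 gene cluster, whereas CTSG lies on another chromosome. AZU1 is at chr19:827587-827836 (plus strand), PRTN3 at chr19:840749-840998 (plus strand) and CTSG at chr14:24576251-24576500 (minus strand), all GRCh38.p14, written 5′ to 3′ on the gene's strand with capitals on the motif matches. The RefSeq start of AZU1 lies downstream of the first base of its GENCODE gene, given below.
AZU1: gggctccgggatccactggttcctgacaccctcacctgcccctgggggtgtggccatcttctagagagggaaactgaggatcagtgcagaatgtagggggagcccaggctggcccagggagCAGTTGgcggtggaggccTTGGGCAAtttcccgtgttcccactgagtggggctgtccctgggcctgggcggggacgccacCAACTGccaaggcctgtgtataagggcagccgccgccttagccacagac
PRTN3: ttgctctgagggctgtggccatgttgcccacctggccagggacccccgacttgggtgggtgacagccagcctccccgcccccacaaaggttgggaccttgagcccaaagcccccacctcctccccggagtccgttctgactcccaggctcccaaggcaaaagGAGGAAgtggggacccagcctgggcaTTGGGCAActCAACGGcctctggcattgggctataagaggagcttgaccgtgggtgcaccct
CTSG: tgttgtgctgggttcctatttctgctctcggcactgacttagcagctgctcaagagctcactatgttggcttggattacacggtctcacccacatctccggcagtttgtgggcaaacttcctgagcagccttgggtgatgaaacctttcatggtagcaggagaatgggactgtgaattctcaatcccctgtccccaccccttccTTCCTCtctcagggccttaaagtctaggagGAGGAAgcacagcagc

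Motifs were searched on both strands as TAACNG and CAACNG for MYB, GAGGAA for PU.1, TGTGGT for RUNX and TTNNGNAA for C/EBP. AZU1 held the C/EBP-type match TTGGGCAA 111 to 104 bases before the start, and PRTN3 held the same 8 letters 62 to 55 bases before its start. CAACNG was matched in AZU1 at 129 to 124 bases (minus strand) and 49 to 44 bases before the start, and in PRTN3 at 52 to 47 bases. GAGGAA was matched in PRTN3 at 88 to 83 bases, and in CTSG at 46 to 41 bases (minus strand) and 16 to 11 bases. No 2 of these matches overlapped within a promoter, and TGTGGT was not matched in any of the 3 windows. Of all 35116 promoters, cut to the same length, 33.2% held the C/EBP letters, 39.3% the MYB letters, 23.6% the PU.1 letters and 11% the RUNX letters. These matches describe the letters only.

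In the libraries as a whole, totals ran from 12236937 to 20388437 counts. Correlations of log2 CPM across genes were at least 0.968 within a group and at most 0.954 between groups. FIP1L1 averaged 15.4 ± 1.55 CPM with shRNA 1, 19.6 ± 0.788 CPM with shRNA 2 and 41.3 ± 2.27 CPM in the control (SD, n = 4 each), log2 changes of -1.43 with shRNA 1 and -1.08 with shRNA 2 (adjusted p by edgeR 1.92e-11 and 3.01e-09). All 7 progenitor markers were tested. Their summed level was 2040 to 2350 CPM with shRNA 1, 2380 to 2450 with shRNA 2 and 2480 to 2690 in the control. KIT was the largest part, averaging 1160 CPM with shRNA 1 and 1450 CPM with shRNA 2 and in the control. With shRNA 1, 2 markers were higher and 4 lower, where 28.6% of all tested genes were higher and 28.7% lower. With shRNA 2, 1 was higher and 4 lower, where 24.7% were higher and 25.3% lower. Log2 changes with shRNA 1 and shRNA 2 were -2.33 and -0.55 for CD34, -1.32 and -0.39 for RUNX1T1, and -0.20 and 1.34 for CD33. These genes were named after their values were seen. Markers of other cells were in part read: CSF3R, of neutrophils but also of their precursors, averaged 433 CPM in the control, and the monocyte markers FCGR1A and CSF1R averaged 29.8 and 12.3 CPM there. Other markers, namely CD163 of macrophages, FCGR3B and S100A12 of neutrophils, CLC of eosinophils, MS4A2 of mast cells, HBB of red cells, and MS4A1 and NCAM1 of lymphocytes, had no read in any library. In these bulk samples, fewer cells with a transcript and less of it per cell cannot be told apart.

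Among the members, the level per kilobase of merged exon placed MPO far above the rest in each group, at 2050 ± 319 CPM per kb with shRNA 1, 2810 ± 315 with shRNA 2 and 4600 ± 246 in the control (SD, n = 4 each). PRTN3 came next at 298 ± 144 CPM per kb with shRNA 1, 144 ± 18.9 with shRNA 2 and 148 ± 6.68 in the control. ELANE followed at 178 ± 131 CPM per kb with shRNA 1, 142 ± 49.8 with shRNA 2 and 99.8 ± 35 in the control. With shRNA 1 AZU1 stood at 137 ± 62.1 CPM per kb, above CTSG at 56.1 ± 22.1, while CTSG was above AZU1 with shRNA 2 (102 ± 11 against 37.1 ± 5.40) and in the control (75.3 ± 15.8 against 49.2 ± 4.16). The 2 lowest were BPI and LYZ, with BPI above LYZ with shRNA 1 (8.70 ± 3.31 against 2.75 ± 1.11) and in the control (1.34 ± 0.248 against 0.362 ± 0.132) and LYZ above BPI with shRNA 2 (3.63 ± 0.538 against 2.37 ± 0.438). Libraries of PRTN3 and ELANE overlapped in every group, as did those of ELANE and AZU1 and of AZU1 and CTSG with shRNA 1, and those of ELANE and CTSG with shRNA 2 and in the control. All other neighbours in the order were apart. The order rests on the merged exon lengths, and the annotation used for counting is not named. In CPM without length, AZU1 (79.8 to 97.2) and CTSG (81.5 to 133) overlapped in the control. With shRNA 2, LYZ (5.59 to 7.42) and BPI (4.97 to 7.40) overlapped in CPM.

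All 7 members passed the filter on low counts, LYZ through the shRNA groups, since its control libraries held 5, 6, 12 and 15 reads. With shRNA 1, 4 of the 7 were higher than in the control (PRTN3, AZU1, LYZ and BPI), 1 was lower (MPO) and 2 were not called (ELANE and CTSG), by the edgeR quasi-likelihood test with p adjusted over all 15834 tested genes at a threshold of 0.05. Of all tested genes, 28.6% were higher and 28.7% lower in that comparison (57.3% called in either direction). With shRNA 2, 2 were higher (LYZ and BPI), 1 was lower (MPO) and 4 were not called, where 24.7% of all tested genes were higher and 25.3% lower (50.0% in either direction). The median log2 change of the 7 was 1.00 with shRNA 1 and 0.43 with shRNA 2, and of all tested genes 0.0203 and 0.000475. LYZ entered through the groups where it was high and is part of these counts and medians. No result about the 7 as a set is therefore read from them. Both comparisons use the same control libraries. Between the shRNAs, 2 members were higher with shRNA 2 (MPO and CTSG), 3 were lower (PRTN3, AZU1 and BPI) and 2 were not called, where 29.3% of all tested genes were higher and 29.4% lower (58.7% in either direction).

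**Figure D1:**
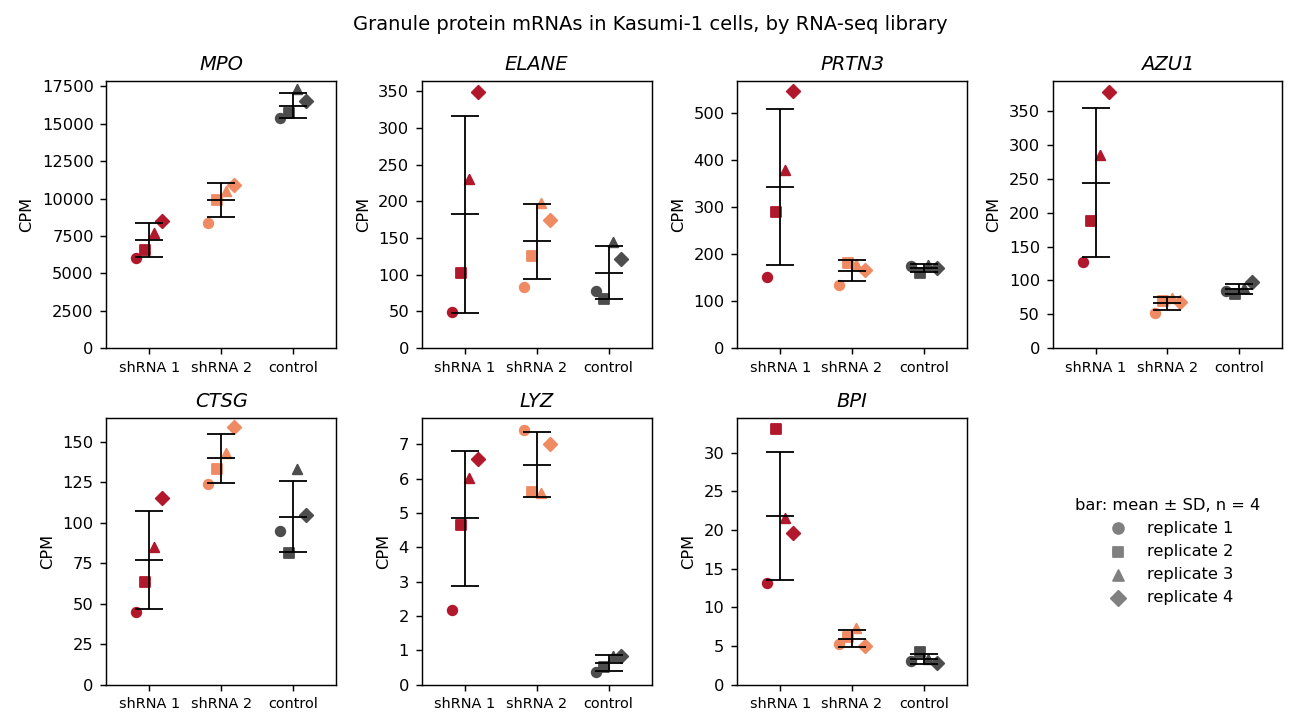
CPM of each granule protein mRNA (y axis, linear from 0) in the 4 libraries of shRNA 1, shRNA 2 and control, with bars for mean ± SD. MPO was below the control in all shRNA libraries, LYZ and BPI above it, and the shRNA 1 libraries of ELANE, PRTN3 and AZU1 were spread widely.

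**Figure D2:**
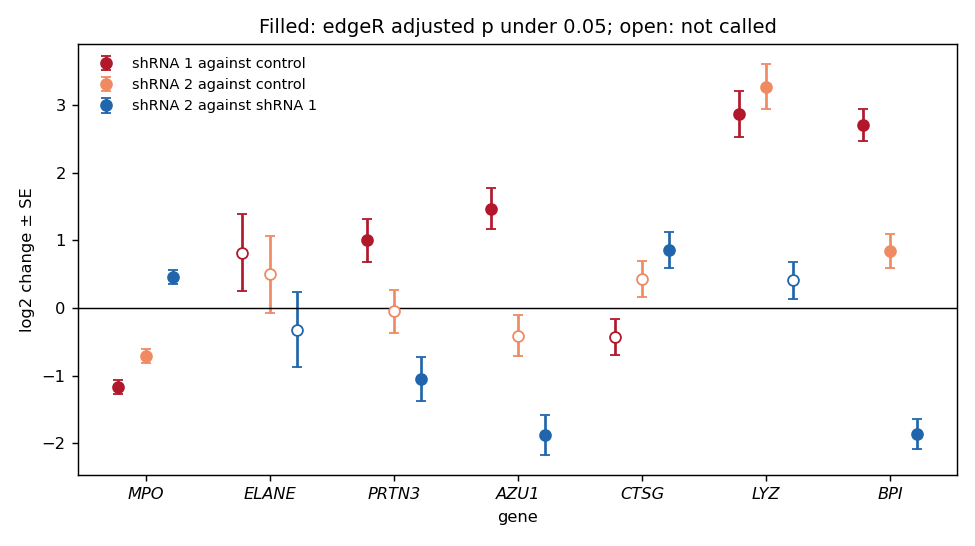
log2 change ± SE from the edgeR fit (y axis) of each member in the 3 comparisons, filled where the adjusted p was under 0.05. LYZ and BPI were higher and MPO lower with each shRNA, while AZU1, PRTN3 and BPI were lower with shRNA 2 than with shRNA 1.

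MPO (GRCh38 chromosome 17, 58269856 to 58280935, minus strand), the most abundant member, fell with each shRNA. It had 6060, 6540, 7720 and 8530 CPM with shRNA 1, 8360, 9900, 10500 and 10900 CPM with shRNA 2, and 15400, 15700, 17300 and 16500 CPM in the control, in the order of replicates 1 to 4. Every library of each shRNA was below every control library. The log2 change was -1.17 with shRNA 1 (SE 0.10, edgeR adjusted p = 1.06e-09), or 44.4% of the control level, and -0.71 with shRNA 2 (SE 0.10, edgeR adjusted p = 2.41e-06), or 61.1%. MPO was higher with shRNA 2 than with shRNA 1, by a log2 difference of 0.46 (SE 0.10, edgeR adjusted p = 0.000317), with 3 of 4 shRNA 2 libraries above every shRNA 1 library. MPO reads made up 0.635% to 0.925% of all counts with shRNA 1, 0.822% to 1.06% with shRNA 2 and 1.46% to 1.59% in the control. By count it ranked between 4 and 7 among all genes with shRNA 1, between 3 and 6 with shRNA 2, and 2 or 3 in the control.

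AZU1, azurocidin, rose with shRNA 1. Its gene (GRCh38 chromosome 19, 825097 to 832018, plus strand) gave 127, 187, 285 and 378 CPM with shRNA 1, 52.2, 69.8, 74.2 and 68.2 CPM with shRNA 2, and 84.4, 79.8, 89.3 and 97.2 CPM in the control. All 4 shRNA 1 libraries lay above every control library, and all 4 shRNA 2 libraries lay below every control library. The log2 change was 1.47 with shRNA 1 (SE 0.30, edgeR adjusted p = 0.00194) and -0.41 with shRNA 2 (SE 0.30, edgeR adjusted p = 0.295), with a 95% interval of -1.09 to 0.27 for shRNA 2. The spread in that fit was estimated over all 12 libraries. Fitted with the shRNA 2 and control libraries alone, the same change of -0.41 had SE 0.09 and an edgeR adjusted p of 0.000489. Between the shRNAs AZU1 was lower with shRNA 2 with a log2 difference of -1.88 (SE 0.30, edgeR adjusted p = 0.00041).

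PRTN3, proteinase 3 (GRCh38 chromosome 19, 840960 to 848175, plus strand), also rose with shRNA 1. It had 152, 290, 378 and 547 CPM with shRNA 1, 134, 181, 179 and 165 CPM with shRNA 2, and 174, 159, 177 and 170 CPM in the control. With shRNA 1 replicates 2, 3 and 4 were above every control library and replicate 1 was below them, while the shRNA 2 libraries lay on either side. The log2 change was 1.00 with shRNA 1 (SE 0.32, edgeR adjusted p = 0.0213) and -0.05 with shRNA 2 (SE 0.32, edgeR adjusted p = 0.918, 95% interval -0.77 to 0.67). The call with shRNA 1 was lost without control replicate 2 (log2 change 0.97, edgeR adjusted p = 0.0512), shRNA 1 replicate 3 (0.95, 0.0504) or shRNA 1 replicate 4 (0.68, 0.054), and in a fit of those 2 groups alone (1.02, 0.0582). PRTN3 was lower with shRNA 2 than with shRNA 1 with a log2 difference of -1.05 (SE 0.32, edgeR adjusted p = 0.0168).

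ELANE, neutrophil elastase (GRCh38 chromosome 19, 851014 to 856247, plus strand), was the member with the widest spread within the shRNA groups. It had 48.6, 102, 230 and 349 CPM with shRNA 1, 83.5, 126, 198 and 175 CPM with shRNA 2, and 78.3, 67.1, 144 and 121 CPM in the control. The 3 groups overlapped, and the highest shRNA 1 library held 7.19 times the level of the lowest, against 2.37 times with shRNA 2 and 2.14 times in the control. The log2 change was 0.82 with shRNA 1 (SE 0.57, edgeR adjusted p = 0.247, 95% interval -0.47 to 2.11) and 0.50 with shRNA 2 (SE 0.57, edgeR adjusted p = 0.504, 95% interval -0.79 to 1.79). Without shRNA 1 replicate 4 the value with shRNA 1 was 0.30, and without shRNA 1 replicate 1 it was 1.14. Between the shRNAs the log2 difference was -0.32 (SE 0.56, edgeR adjusted p = 0.654, 95% interval -1.59 to 0.95), and without shRNA 1 replicate 4 it was 0.20.

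CTSG, cathepsin G (GRCh38 chromosome 14, 24573522 to 24576260, minus strand), was called between the shRNAs and against the control with neither. It had 44.6, 63.2, 85.1 and 115 CPM with shRNA 1, 124, 133, 143 and 159 CPM with shRNA 2, and 94.8, 81.5, 133 and 105 CPM in the control. Every shRNA 2 library was above every shRNA 1 library, and the control libraries overlapped those of each shRNA. The log2 difference of shRNA 2 from shRNA 1 was 0.86 (SE 0.27, edgeR adjusted p = 0.0181), which was not called without shRNA 1 replicate 2 (0.78, edgeR adjusted p = 0.0504). Against the control the log2 change was -0.43 with shRNA 1 (SE 0.27, edgeR adjusted p = 0.196) and 0.43 with shRNA 2 (SE 0.26, edgeR adjusted p = 0.208), with 95% intervals of -1.04 to 0.18 for shRNA 1 and -0.16 to 1.02 for shRNA 2. Without shRNA 1 replicate 4 the first of these became -0.69 (edgeR adjusted p = 0.0307), and with the shRNA 2 and control libraries alone the second had an edgeR adjusted p of 0.0445.

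LYZ, lysozyme (GRCh38 chromosome 12, 69348341 to 69354234, plus strand), rose with each shRNA and had the lowest level of the 7 in the control. It had 2.17, 4.65, 6.01 and 6.58 CPM with shRNA 1, from 38, 101, 103 and 100 reads. It had 7.42, 5.61, 5.59 and 7.02 CPM with shRNA 2, and 0.374, 0.512, 0.83 and 0.841 CPM in the control, with 140, 99, 102 and 106 reads with shRNA 2. All 8 shRNA libraries were above every control library. The log2 change was 2.87 with shRNA 1 (SE 0.34, edgeR adjusted p = 1.87e-07) and 3.28 with shRNA 2 (SE 0.34, edgeR adjusted p = 3.26e-08), fitted ratios to the control of 7.31 with shRNA 1 and 9.69 with shRNA 2. The difference between the shRNAs was 0.41 (SE 0.27, edgeR adjusted p = 0.203, 95% interval -0.20 to 1.02). LYZ is also made by monocytes, and the summed level of the 6 monocyte and macrophage markers with an ID in the table, of which 2 passed the filter, was 42.7 to 54.1 CPM with shRNA 1, 19.7 to 32.9 CPM with shRNA 2 and 39.3 to 44.4 CPM in the control. FCGR1A and CSF1R carried most of that sum, and its part in the LYZ values was not tested. The sum of 8 mature neutrophil markers was 168 to 213 CPM with shRNA 1, 178 to 209 CPM with shRNA 2 and 430 to 486 CPM in the control, nearly all from CSF3R. CXCR2 averaged 14.9 CPM with shRNA 1, 8.78 CPM with shRNA 2 and 13.2 CPM in the control, and was lower with shRNA 2 (edgeR adjusted p = 0.00271). S100A9 averaged 0.415 CPM with shRNA 1, 2.65 CPM with shRNA 2 and 0.137 CPM in the control. It passed the filter on low counts through the shRNA 2 group where it was high.

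BPI (GRCh38 chromosome 20, 38304123 to 38337505, plus strand) rose with each shRNA, more with shRNA 1. It had 13.1, 33.0, 21.6 and 19.6 CPM with shRNA 1, 5.24, 6.23, 7.40 and 4.97 CPM with shRNA 2, and 3.06, 4.27, 3.32 and 2.86 CPM in the control. The 3 groups did not overlap. The log2 change was 2.71 with shRNA 1 (SE 0.24, edgeR adjusted p = 6.35e-09) and 0.84 with shRNA 2 (SE 0.25, edgeR adjusted p = 0.00903). With shRNA 1 the log2 changes of BPI and LYZ lay within 1 SE of each other, and BPI had the larger without control replicate 2 (2.83 against 2.79) or without shRNA 1 replicate 4 (2.76 against 2.69). The log2 difference of shRNA 2 from shRNA 1 was -1.87 (SE 0.22, edgeR adjusted p = 3.8e-07). A transcript on the other strand overlaps BPI and held at most 3 reads in any library, and the one that overlaps LYZ held 0. AL359555.3 overlaps BPI on the same strand and had no matched ID among the counts. Its part in the BPI reads is therefore not known.

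AZU1, PRTN3 and ELANE lie in that order on chromosome 19 and are followed, 3.40 kb past ELANE, by CFD, the gene of complement factor D, a serine protease of the alternative complement pathway. CFD was also the gene whose log2 CPM over the 12 libraries was most like that of AZU1, with r = 0.996 as a description of libraries that fall into 3 groups. It had 79.9, 132, 246 and 303 CPM with shRNA 1, 24.4, 28.8, 34.9 and 28.3 CPM with shRNA 2, and 44.5, 39.9, 48.5 and 50.4 CPM in the control. As for AZU1, every shRNA 1 library was above and every shRNA 2 library below all control libraries. The log2 change of CFD was 2.05 with shRNA 1 (SE 0.37, edgeR adjusted p = 0.00101), and -0.66 with shRNA 2 (SE 0.38, edgeR adjusted p = 0.19). Fitted with the shRNA 2 and control libraries alone, that -0.66 had an edgeR adjusted p of 1.16e-06.

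The next genes on either side had smaller or no called changes with shRNA 1. PLPPR3, a phospholipid phosphatase-related protein gene 3.12 kb before AZU1 on the other strand, had a log2 change of -0.02 with shRNA 1 (SE 0.14, edgeR adjusted p = 0.916) and fell by 1.24 with shRNA 2 (SE 0.14, edgeR adjusted p = 7.28e-06). The splicing repressor PTBP1 had -0.02 with shRNA 1 (edgeR adjusted p = 0.761) and -0.16 with shRNA 2 (edgeR adjusted p = 0.0235). MED16, a Mediator subunit, had -0.18 with shRNA 1 (edgeR adjusted p = 0.0356) and -0.31 with shRNA 2 (edgeR adjusted p = 0.00116). The PTBP1 call was lost with no filter on low counts, without control replicate 3 and without shRNA 2 replicate 1, with edgeR adjusted p up to 0.0935. The MED16 call with shRNA 1 was lost in the fit of those 2 groups alone and without control replicate 1, 2 or 3 or shRNA 1 replicate 4, with edgeR adjusted p up to 0.147.

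**Figure D3:**
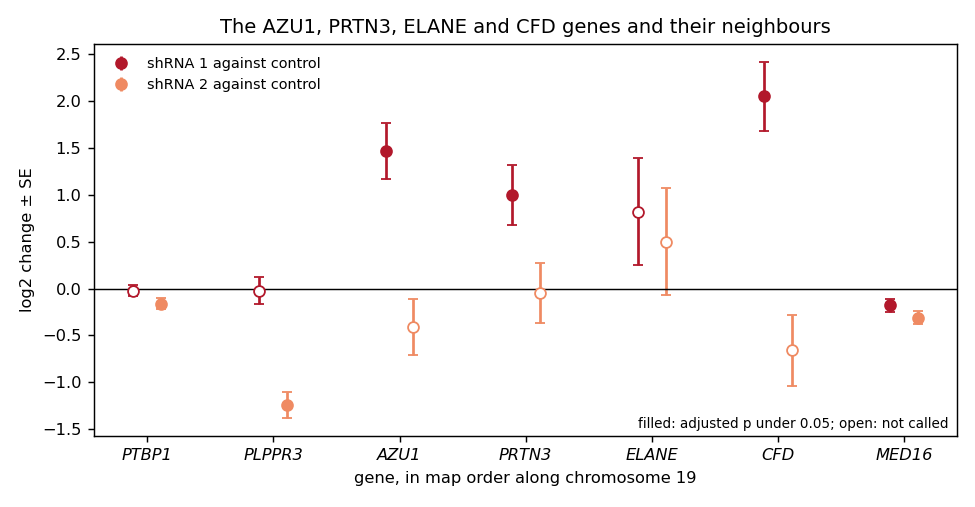
log2 change ± SE (y axis) with each shRNA against the control for 7 genes in map order along chromosome 19, filled where the edgeR adjusted p was under 0.05. With shRNA 1, AZU1, PRTN3 and CFD were higher and ELANE, at 0.82, was not called, while PTBP1 and PLPPR3 lay at -0.02.

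Neighbours of the other members were also read from the same fit. LPO, the lactoperoxidase gene 1.34 kb from MPO, rose by 1.23 with shRNA 1 and 2.22 with shRNA 2 (adjusted p by edgeR 2.48e-09 and 2.3e-13), opposite in sign to MPO. TSPOAP1, on the other side of MPO, rose by 0.55 with shRNA 1 and 1.10 with shRNA 2 (adjusted p by edgeR 9.97e-05 and 3.12e-08). Next to LYZ, YEATS4 rose by 0.39 with shRNA 1 and had -0.03 with shRNA 2 (adjusted p by edgeR 0.00143 and 0.833), and CPSF6, of cleavage factor I, fell by 0.43 with shRNA 1 and had -0.04 with shRNA 2 (adjusted p by edgeR 3.14e-06 and 0.64). The nearest tested coding genes around CTSG (SDR39U1 and STXBP6) and BPI (RPRD1B and RALGAPB) lay over 130 kb away, with log2 changes against the control between -0.35 and 0.41.

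Within the shRNA 1 group the libraries stood in 1 order for 6 of the members. Replicate 1 was the lowest library for all 7, and replicate 4 was the highest for MPO, ELANE, PRTN3, AZU1, CTSG and LYZ, while replicate 2 was the highest for BPI. Highest over lowest was 1.41 for MPO, 2.53 for BPI, 2.58 for CTSG, 2.98 for AZU1, 3.03 for LYZ, 3.60 for PRTN3 and 7.19 for ELANE. The SD of log2 CPM of ELANE in this group, 1.26, was larger than that of 97.8% of tested genes, and that of MPO, 0.224, larger than that of 51.5%. The median SD of all tested genes was 0.218 with shRNA 1, 0.132 with shRNA 2 and 0.168 in the control. With shRNA 2, replicate 1 was also the lowest library for MPO, ELANE, PRTN3, AZU1 and CTSG, while LYZ was lowest in replicate 3 and BPI in replicate 4. In the control, replicate 2 was the lowest for ELANE, PRTN3, AZU1 and CTSG, replicate 1 for MPO and LYZ, and replicate 4 for BPI. The order with shRNA 1 was not particular to the members. Among the shRNA 1 libraries PRSS57, G6PC3, CFD and CEBPE also rose from replicate 1 to 4, while IGF2R, AP3D1 and MYB fell. FIP1L1 had 14.1, 14.7, 15.1 and 17.6 CPM in the same 4 libraries, also lowest in replicate 1 and highest in replicate 4, and CD34, a progenitor surface marker, had 55.2, 43.7, 54.8 and 53.6 CPM. The part of FIP1L1 in the order of the members was not tested.

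**Figure D4:**
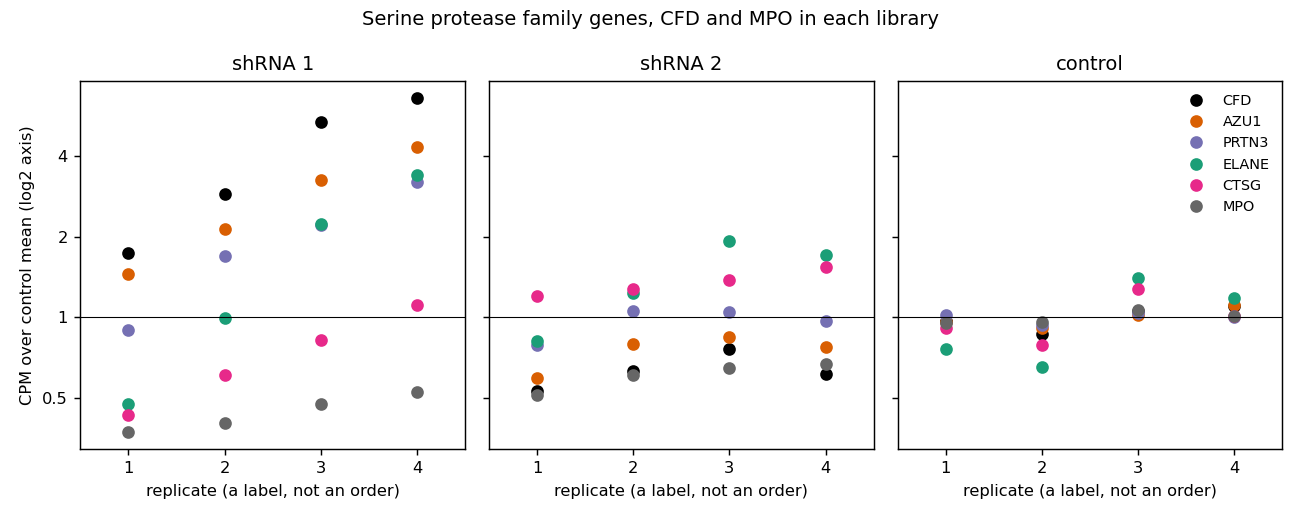
CPM over the control mean (y axis, log2-scaled) in each library for CFD, AZU1, PRTN3, ELANE, CTSG and MPO. In the shRNA 1 group AZU1 ran from 1.45 to 4.31 times the control mean and ELANE from 0.473 to 3.41 times, and in each gene replicate 1 was lowest.

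Ratios between members were read within each library. The ratio of PRTN3 to AZU1 reads was 1.20 to 1.55 with shRNA 1, 2.41 to 2.59 with shRNA 2 and 1.75 to 2.06 in the control, so that the 3 groups did not overlap. The ratio of CTSG to ELANE reads was 0.33 to 0.919 with shRNA 1, 0.72 to 1.49 with shRNA 2 and 0.863 to 1.21 in the control. Together the 7 genes took 0.675% to 1.08% of all counts with shRNA 1, 0.861% to 1.12% with shRNA 2 and 1.5% to 1.63% in the control. The 4 genes of the serine protease family took 0.039% to 0.151% of counts with shRNA 1, 0.0387% to 0.0592% with shRNA 2 and 0.0371% to 0.0495% in the control.

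By the likeness of log2 CPM over the 12 libraries, the genes most like MPO were G6PC3, MYC and DNPH1 (r = 0.991, 0.99 and 0.984). For LYZ they were INKA2, RTL5 and the lysosomal cholesterol carrier NPC2 (r = 0.99, 0.986 and 0.986), and for BPI the glycosyltransferase gene B3GNT5, BHLHE40 and LUCAT1 (r = 0.977, 0.976 and 0.976). After CFD, AZU1 was followed by TAZ and ALDH3B1 (r = 0.971 each). PRTN3 was most like ARMH1, LIMD2 and RCCD1 (r = 0.981, 0.967 and 0.964), CTSG most like AGTRAP, STAC3 and IFI27L2 (r = 0.983, 0.977 and 0.975), and ELANE most like HMGN1, RPL36 and PCBD1 (r = 0.918, 0.918 and 0.911). These r describe libraries that share groups and carry no test.

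Other proteins of azurophil granules were read from the same fit. PRSS57, a serine protease of the same granules, had 129, 152, 181 and 198 CPM with shRNA 1, 298, 368, 368 and 333 CPM with shRNA 2, and 280, 262, 318 and 317 CPM in the control. Its log2 change was -0.84 with shRNA 1 (SE 0.11, edgeR adjusted p = 7.27e-06) and 0.22 with shRNA 2 (SE 0.11, edgeR adjusted p = 0.121). The value with shRNA 2 was called in 4 alternatives, with edgeR adjusted p of 0.00818 to 0.0403. GAA, acid alpha-glucosidase, fell by 0.72 with shRNA 1 (edgeR adjusted p = 6.56e-09) and rose by 0.20 with shRNA 2 (edgeR adjusted p = 0.0207, lost without control replicate 2 or 4 or shRNA 2 replicate 3 or 4, up to 0.0713). Of the 10 genes listed 6 were tested: 1 was higher and 4 lower with shRNA 1 (median log2 change -0.42), and 4 were higher and 0 lower with shRNA 2 (median 0.30). For this and each later list, the share of all tested genes was 28.6% higher and 28.7% lower with shRNA 1, and 24.7% higher and 25.3% lower with shRNA 2. Among the 4 not tested, the alpha-defensin genes DEFA1 and DEFA1B had no read in any library.

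Of the genes that process and pack granule proteins, CTSC, the dipeptidyl peptidase that activates the serine proteases, fell. It averaged 133 ± 7.58 CPM with shRNA 1, 197 ± 10.2 CPM with shRNA 2 and 265 ± 14.7 CPM in the control (SD, n = 4 each), log2 changes of -0.99 with shRNA 1 and -0.43 with shRNA 2 (adjusted p by edgeR 7.51e-12 and 6.02e-06). The chaperone CALR, needed for myeloperoxidase folding, fell by 0.48 with shRNA 1 and 0.34 with shRNA 2 (adjusted p by edgeR 4.3e-06 and 0.000307). IGF2R, the large mannose 6-phosphate receptor, rose by 1.27 with shRNA 1 and 0.60 with shRNA 2 (adjusted p by edgeR 4.43e-13 and 1.52e-07), and AP3D1, of the AP-3 sorting coat, rose by 0.48 with shRNA 1 and 0.62 with shRNA 2 (adjusted p by edgeR 8.66e-07 and 3.24e-08). SRGN, the granule proteoglycan serglycin, named after its values were seen, rose by 0.84 with shRNA 1 (edgeR adjusted p = 0.00137) and had -0.07 with shRNA 2 (edgeR adjusted p = 0.764). All 12 listed genes were tested, with 6 higher and 3 lower with shRNA 1 and 6 higher and 4 lower with shRNA 2 (median log2 change 0.19 with shRNA 1 and 0.20 with shRNA 2).

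Inhibitors of these proteases also differed. SERPINB1, an intracellular inhibitor of elastase, proteinase 3 and cathepsin G, averaged 85.0 ± 6.60 CPM with shRNA 1, 93.6 ± 5.47 CPM with shRNA 2 and 220 ± 16.3 CPM in the control (SD, n = 4 each), log2 changes of -1.37 with shRNA 1 and -1.23 with shRNA 2 (adjusted p by edgeR 2.2e-13 and 2.63e-12). SERPINB6 fell by 0.40 with shRNA 1 and 0.32 with shRNA 2 (adjusted p by edgeR 0.00016 and 0.00201), and SERPINB8 rose by 1.00 with shRNA 1 and 1.96 with shRNA 2 (adjusted p by edgeR 0.000917 and 2.14e-07). SLPI, a secreted elastase inhibitor, and SERPINA1, alpha-1-antitrypsin, were named after their values were seen. SLPI passed the filter on low counts through the shRNA 2 group where it was high. It rose by 4.11 with shRNA 2 (edgeR adjusted p = 1.41e-07) to 5.44 ± 0.976 CPM, against 0.297 ± 0.125 CPM in the control, and had 1.13 with shRNA 1 (edgeR adjusted p = 0.0786), which without shRNA 1 replicate 2 was 1.5 and called (0.00765). SERPINA1 fell by 0.49 with shRNA 1 (edgeR adjusted p = 0.00708) and rose by 1.29 with shRNA 2 (edgeR adjusted p = 7.11e-07). Of 11 listed genes 6 were tested, with 1 higher and 4 lower with shRNA 1 and 3 higher and 2 lower with shRNA 2 (median log2 change -0.44 with shRNA 1 and 0.62 with shRNA 2). SLPI, whose entry and direction are linked, is part of these counts and medians, so no result is read from them.

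Of the transcription factors known to act on granule protein genes, 6 of 10 tested were higher and 3 lower with shRNA 1, and 2 were higher and 2 lower with shRNA 2 (median log2 change 0.43 with shRNA 1 and 0.18 with shRNA 2). CEBPB rose by 1.11 with shRNA 1 and 0.66 with shRNA 2 (adjusted p by edgeR 4.84e-05 and 0.00568) and KLF5 by 0.95 with shRNA 1 and 1.31 with shRNA 2 (adjusted p by edgeR 0.000651 and 2.22e-05). GFI1, a repressor, fell by 0.57 with shRNA 1 and 0.15 with shRNA 2 (adjusted p by edgeR 1.54e-08 and 0.035), where the call with shRNA 2 was lost with no filter and without control replicate 3 or 4 or shRNA 2 replicate 1 or 4 (up to 0.138). CEBPD, CEBPE, RUNX1 and MYB were named after their values were seen. CEBPD rose by 1.15 and CEBPE by 0.96 with shRNA 1 (adjusted p by edgeR 0.000181 and 1e-05), and their values with shRNA 2 were 0.12 and 0.34 (adjusted p by edgeR 0.641 and 0.0518). The CEBPE value with shRNA 2 was called in 9 of the 17 alternatives, with adjusted p by edgeR or DESeq2 of 0.000893 to 0.0456. RUNX1, whose reads can include the fusion transcript, fell by 1.07 with shRNA 1 and had -0.06 with shRNA 2 (adjusted p by edgeR 2.4e-12 and 0.441). MYB rose by 0.30 with shRNA 1 and fell by 0.74 with shRNA 2 (adjusted p by edgeR 0.00115 and 1.44e-08).

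**Figure D5:**
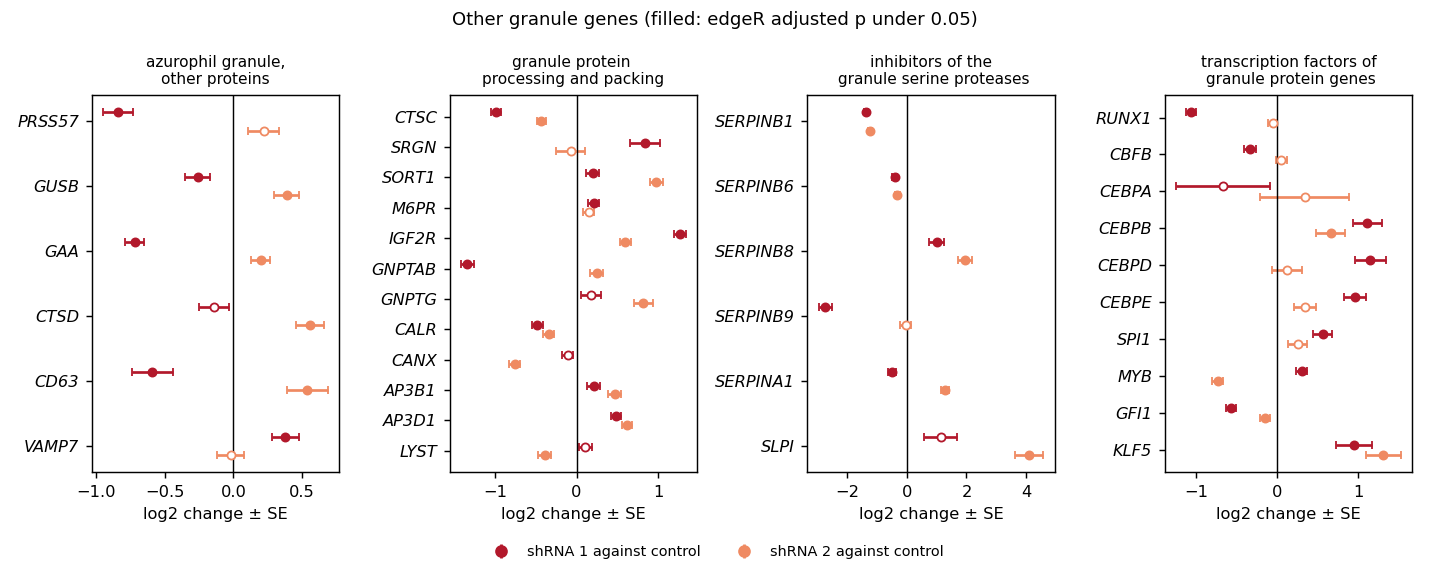
log2 change ± SE (x axis) with each shRNA against the control for the tested genes of 4 lists, filled where the edgeR adjusted p was under 0.05. SERPINB1 and CTSC were lower with each shRNA, and GAA, CD63 and GUSB were lower with shRNA 1 and higher with shRNA 2, where the GUSB call with shRNA 1 was lost without control replicate 3 (0.0528).

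Granule proteins of later neutrophil stages and of other cells were mostly low. Of 16 specific and gelatinase granule genes 6 were tested, while LTF, MMP8 and CRISP3 had no read. With shRNA 1, 1 was higher and 1 lower (median log2 change 0.44). With shRNA 2, 3 were higher and 1 lower (median 1.04). The called genes CHI3L1, SLPI and OLFM4 entered through groups where they were high, and 10 of the 16 were left out by the filter. Entry and direction are thus linked, and no result is read from these counts and medians. RNASE3 and GZMM enter the later lists here in the same way. CHI3L1, which passed the filter on low counts only through the shRNA groups where it was high, rose by 2.97 with shRNA 1 and 3.13 with shRNA 2 (adjusted p by edgeR 9.61e-06 and 6.05e-06) to 2.80 ± 0.911 CPM with shRNA 1 and 3.12 ± 1.12 CPM with shRNA 2, against 0.350 ± 0.294 CPM in the control. OLFM4 had 0.0608 ± 0.0936 CPM with shRNA 1, 0.469 ± 0.383 CPM with shRNA 2 and 1.40 ± 0.135 CPM in the control, and was lower with each, having passed the filter through the control group where it was high (adjusted p by edgeR 4.96e-05 and 0.0366). Its call with shRNA 2 was lost with no filter and without any 1 of the 4 control libraries or shRNA 2 replicate 1, 2 or 4 (up to 0.125). Of 11 eosinophil, basophil and mast cell granule genes 6 were tested, with 3 higher and 0 lower with shRNA 1 and 2 higher and 1 lower with shRNA 2 (median log2 change 0.72 with shRNA 1 and 0.34 with shRNA 2). RNASE2 rose by 0.99 with shRNA 1 and 1.67 with shRNA 2 (adjusted p by edgeR 8.27e-06 and 4.56e-09). Its close copy RNASE3, which passed the filter only through the shRNA groups, had 1.36 ± 0.479 CPM with shRNA 1, 1.39 ± 0.34 CPM with shRNA 2 and 0.147 ± 0.106 CPM in the control, and reads of this pair may be shared. The summed level of 5 eosinophil markers was 2.3 to 5.31 CPM with shRNA 1, 11 to 13.2 CPM with shRNA 2 and 5.21 to 7.07 CPM in the control. SIGLEC8, of that list, averaged 0.626 CPM with shRNA 1, 9.68 CPM with shRNA 2 and 4.58 CPM in the control. EPX, the other marker of that list that was tested, averaged 3.14 CPM with shRNA 1, 2.07 CPM with shRNA 2 and 1.54 CPM in the control. With shRNA 1 EPX was thus higher (edgeR adjusted p = 0.011), where SIGLEC8 was lower. The part of these markers in the results was not tested. Of 8 cytotoxic lymphocyte granule genes 2 were tested, GZMM through the shRNA groups where it was high. GZMM rose by 2.32 with shRNA 1 and 1.5 with shRNA 2 (adjusted p by edgeR 2.76e-05 and 0.00383), and NKG7 rose by 0.98 with shRNA 1 (edgeR adjusted p = 0.00408) and had 0.52 with shRNA 2 (edgeR adjusted p = 0.123), a value that 3 alternatives called (0.0181 to 0.0487). The summed level of 6 lymphoid markers was 2.86 to 4.46 CPM with shRNA 1, 15.6 to 18.9 CPM with shRNA 2 and 6.01 to 9.82 CPM in the control. CD79A, of that list, averaged 1.64 CPM with shRNA 1, 13.5 CPM with shRNA 2 and 5.11 CPM in the control, and the part of these markers was not tested.

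Genes that cause congenital neutropenia when mutated, of which ELANE itself is one, were listed without it and were all tested. Of these 8 genes, 2 were higher and 6 lower with shRNA 1 (median -0.54), where 28.6% of all tested genes were higher and 28.7% lower. With shRNA 2, 2 were higher and 5 lower (median -0.21), where 24.7% of all tested genes were higher and 25.3% lower. CSF3R, the receptor for granulocyte colony-stimulating factor, had log2 changes of -1.32 with shRNA 1 and -1.23 with shRNA 2 (adjusted p by edgeR 4.08e-12 and 2.72e-11). G6PC3, a glucose 6-phosphatase, fell by 1.01 with shRNA 1 and 0.61 with shRNA 2 (adjusted p by edgeR 2.09e-08 and 3.13e-05). SRP54, of the signal recognition particle, rose by 0.26 with shRNA 1 and 0.20 with shRNA 2 (adjusted p by edgeR 0.00673 and 0.035, with the call for shRNA 2 lost without control replicate 1 or 2 or shRNA 2 replicate 1, 2 or 3, up to 0.109).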

How the data were processed

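The deposited RNA-seq table held unnormalised whole-number counts of reads for each Ensembl gene ID. The submitters' processing notes name STAR 2.7.3a, cutadapt 2.6, DESeq2 and hg19, with no role for any of them. The counter, its annotation and its strand setting are not named in these sources. Per the labels' protocols, RNA was extracted with Trizol and libraries were made with NEBNext Ultra. The test was the quasi-likelihood F test of edgeR 4.0.16 (R 4.3.3), with 12 libraries in 1 fit, a term per group, 9 residual degrees of freedom, TMM scaling, filterByExpr, robust dispersion and Benjamini-Hochberg adjustment over 15834 genes. All tests were two-sided. CPM use the TMM-scaled library size, and counting error weighs most on LYZ and BPI. Intervals are the change ± its standard error times the t quantile on 9 degrees of freedom.

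Alternatives were DESeq2 1.42.0, its size factors in edgeR, no filter, fits of 2 groups, the replicate number as a block, and leaving out each library. On simulated counts the fit was checked before use. The members and lists were chosen with earlier results of these data known. From each list the text names up to 4 genes, of highest mean CPM, called in the same direction against the control with each shRNA, and, where fewer than 2 were, up to 2 called with 1 shRNA or in opposite directions. It also names the 3 genes most like each member (Pearson r of log2 CPM with a prior count of 2) and the nearest tested coding neighbours. Outside these rules it names FIP1L1, CD63, GUSB, genes of the cell marker lists, and those marked as chosen after their values were seen. Gene symbols, merged exon lengths and positions are from GENCODE 29 on GRCh38, and 45342 of 48162 IDs matched. Promoters are from RefSeq on GRCh38.p14. The 3'READS counts of poly(A) sites are on hg19 without gene names and were not used here.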

Additional observations from a re-analysis of the deposited data

Results flagged for a closer look

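For 5 members the effect of the 2 shRNAs differed by the test of shRNA 2 against shRNA 1 itself, a test that called 58.7% of all tested genes. The log2 differences were 0.46 for MPO and 0.86 for CTSG, higher with shRNA 2, and -1.05 for PRTN3, -1.88 for AZU1 and -1.87 for BPI, lower with shRNA 2 (edgeR adjusted p = 0.000317, 0.0181, 0.0168, 0.00041 and 3.8e-07).

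Over 156 groups of 4 libraries of the members and of the other named genes, 4 had 1 library far from the other 3, where chance flags about 1 in 20. These were the lowest shRNA 1 library of STXBP6 (17.0 CPM, replicate 2), the lowest shRNA 1 library of CD34 (43.7 CPM, replicate 2), the highest shRNA 1 library of RUNX1 (202 CPM, replicate 1) and the highest control library of SERPINA1 (60.3 CPM, replicate 4). None was a member.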

How the results depend on the processing

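Of 357 values of the members over 17 alternatives, 349 kept their direction and their side of the threshold or were not called throughout, 5 lost a call and 3 gained one, and none of the called values changed sign; uncalled values of ELANE between the shRNAs and of PRTN3 with shRNA 2 changed sign when single libraries were left out. The number of members called with shRNA 2 against the control was 3 and became 5 in the fit of those 2 groups alone, with AZU1 (edgeR adjusted p = 0.000489) and CTSG (0.0445) added; the same fit called 8798 of all genes, against 7912 in the fit of 12 libraries. With the replicate number as a block, 9123 genes were called with shRNA 1, 8005 with shRNA 2 and 9337 between the shRNAs, and no call of a member changed. Across all tested genes same-numbered libraries did not deviate together (r of -0.0369 to 0.0893 over 12 pairs). By this measure 2 of 12 libraries correlated best with their own number in each other group. These values do not speak for single genes. ELANE was higher in replicates 3 and 4 than in replicates 1 and 2 of every group, and the ratio of PRTN3 to ELANE reads was lower there. Over leaving out each library, 8619 to 9225, 7170 to 8434 and 8665 to 9468 genes were called in the 3 comparisons, and 4 to 5, 3 to 3 and 4 to 5 members. Depth limits LYZ most, with 5 to 15 reads per control library.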
